A study of Bos taurus with 12 samples.

Results

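The genes described here make up and serve the proteasome, the protease that destroys proteins tagged with ubiquitin. They are the 37 genes, of 9155 with a probe set of their own on an Affymetrix bovine array, whose symbol is PSM followed by a letter from A to G and a number. PSMB8 and PSMB9, which replace catalytic subunits in immune cells, were left out by the rule and are given only as related genes. Each gene is represented by its probe set with the highest mean over all 12 arrays, a choice that used no difference between groups. The symbols also take in chaperones that help build the particle, activators that cap it and an inhibitor, so the set is wider than the subunits alone. Another 9 genes of the family (PSMA2, PSMA8, PSMB11, PSMD3, PSMD7, PSMD8, PSMD12, PSMG4 and PSME3) had no probe set with their symbol alone and were not analysed here.

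The core particle of the proteasome is a barrel of stacked rings, alpha rings at the ends and beta rings between them, and the cutting sites face its inner chamber. A regulatory particle sits on the alpha ring. Its base holds the ATPases that unfold a protein and feed it in, and its lid holds the enzyme that removes the ubiquitin chain. Other caps can take its place: PSME1 and PSME2 together form one, and PSME4 forms another.

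RNA had been taken from pools of whole cattle embryos, 3 pools and 3 arrays in each of 4 groups. Day 7 in vivo pools held 25 blastocysts from superovulated donors, and Day 7 in vitro pools held 25 blastocysts made by in vitro fertilization. Day 13 in vivo and Day 13 in vitro pools held 5 conceptuses each, recovered from synchronized recipient heifers into which blastocysts of the stated origin had been placed on Day 7, with 10 per recipient. Both Day 13 groups therefore grew in a uterus after transfer, while the Day 7 groups had not been transferred. The labels call the samples of a group biological replicates. They do not say whether the pools of a group shared donors, fertilization runs or recipients.

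Trophoblast markers ran through all groups: 10 of the 14 listed were measured, all 10 exceeded background on some array and 8 did so on all 12. Their summed level (log2) lay between 14.03 and 15.13 over the Day 7 arrays and between 15.73 and 16.45 over the Day 13 arrays, and between days 3 of the genes rose in vivo and 6 in vitro. Of the 7 leukocyte markers, 0 exceeded background on any array, PTPRC and CD3E among them. Cumulus and granulosa markers were above background for 1 of 8, HSD3B1, with CYP19A1, FSHR and AMH at background throughout. Uterine epithelium markers were so for 3 of 7: MSX1 on all 12 arrays, at 8.68 to 11.53, OVGP1 on 9 and MUC1 on 1. SERPINA14 and PAEP were at background.

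Some markers of the inner lineages of the embryo also differed, not all in the same direction. Of the 3 epiblast markers measured, all above background on some array, CRIPTO rose between days in both origins and POU5F1 fell in vitro (-5.80 ± 0.76, adjusted p = 0.00317). CRIPTO was at background on the 3 in vitro blastocyst arrays and at 6.31 to 6.64 on the in vivo ones, a difference that passed (adjusted p = 0.00257). The summed epiblast level was 9.04 to 10.33 for in vivo blastocysts, 9.91 to 11.24 for in vitro blastocysts, 11.21 to 11.93 for in vivo conceptuses and 9.77 to 10.32 for in vitro conceptuses. Of the 9 hypoblast markers measured 5 were above background, HNF4A and AFP not among them. LAMB1 (2.85 ± 0.35) and APOA1 (5.47 ± 1.03) rose in vivo and GATA6 fell in vitro (-1.81 ± 0.42), with adjusted p of 0.00311, 0.0232 and 0.0365 by limma. The summed hypoblast level was 13.59 to 14.33 and 13.66 to 14.28 for in vivo and in vitro blastocysts, and 13.95 to 15.01 and 12.57 to 13.30 for the conceptuses. Red cell markers were above background for 3 of 5 (HBB, HBG and ALAS2) and stroma markers for 2 of 5 (COL1A1 and COL1A2). The summed level of each of these lists was higher at Day 7, but not every gene followed. COL1A1 exceeded background on only 1 array, Day 13 in vivo replicate 3 (3.46), and ALAS2 was at background on all in vitro arrays. The summed red cell level was 6.01 to 9.79 over the Day 7 arrays and 4.71 to 5.09 over the Day 13 arrays, with HBA at background. The summed stroma level was 7.05 to 8.41 and 4.64 to 7.04, with COL3A1 and DCN at background. The part of these lineages and cell types in the differences between days and between origins was not tested. In a pool of whole embryos, fewer cells of a type and less RNA per cell cannot be told apart.

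Values are the authors' log2 intensities, in the order of replicates 1, 2 and 3 of a group. Background was 3.39, the 99th percentile of 45 control probe sets for sequences that were neither bovine nor added to the samples. Of the 37 genes, 35 exceeded background on all 12 arrays. PSMB10, the inducible catalytic subunit kept by the rule, lay at 2.23 to 2.45 and so at background on every array. PSMD13, a lid subunit, exceeded it on only 2 arrays, both Day 13 in vitro. Differences are log2 differences ± their standard error (SE) from limma, fitted over 24016 probe sets with one group mean each, and an adjusted p is the Benjamini-Hochberg value over all of them. A gene rose or fell where its adjusted p was below 0.05. The plot of all members by array shows that for most genes the groups lie among each other.

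**Figure D1:**
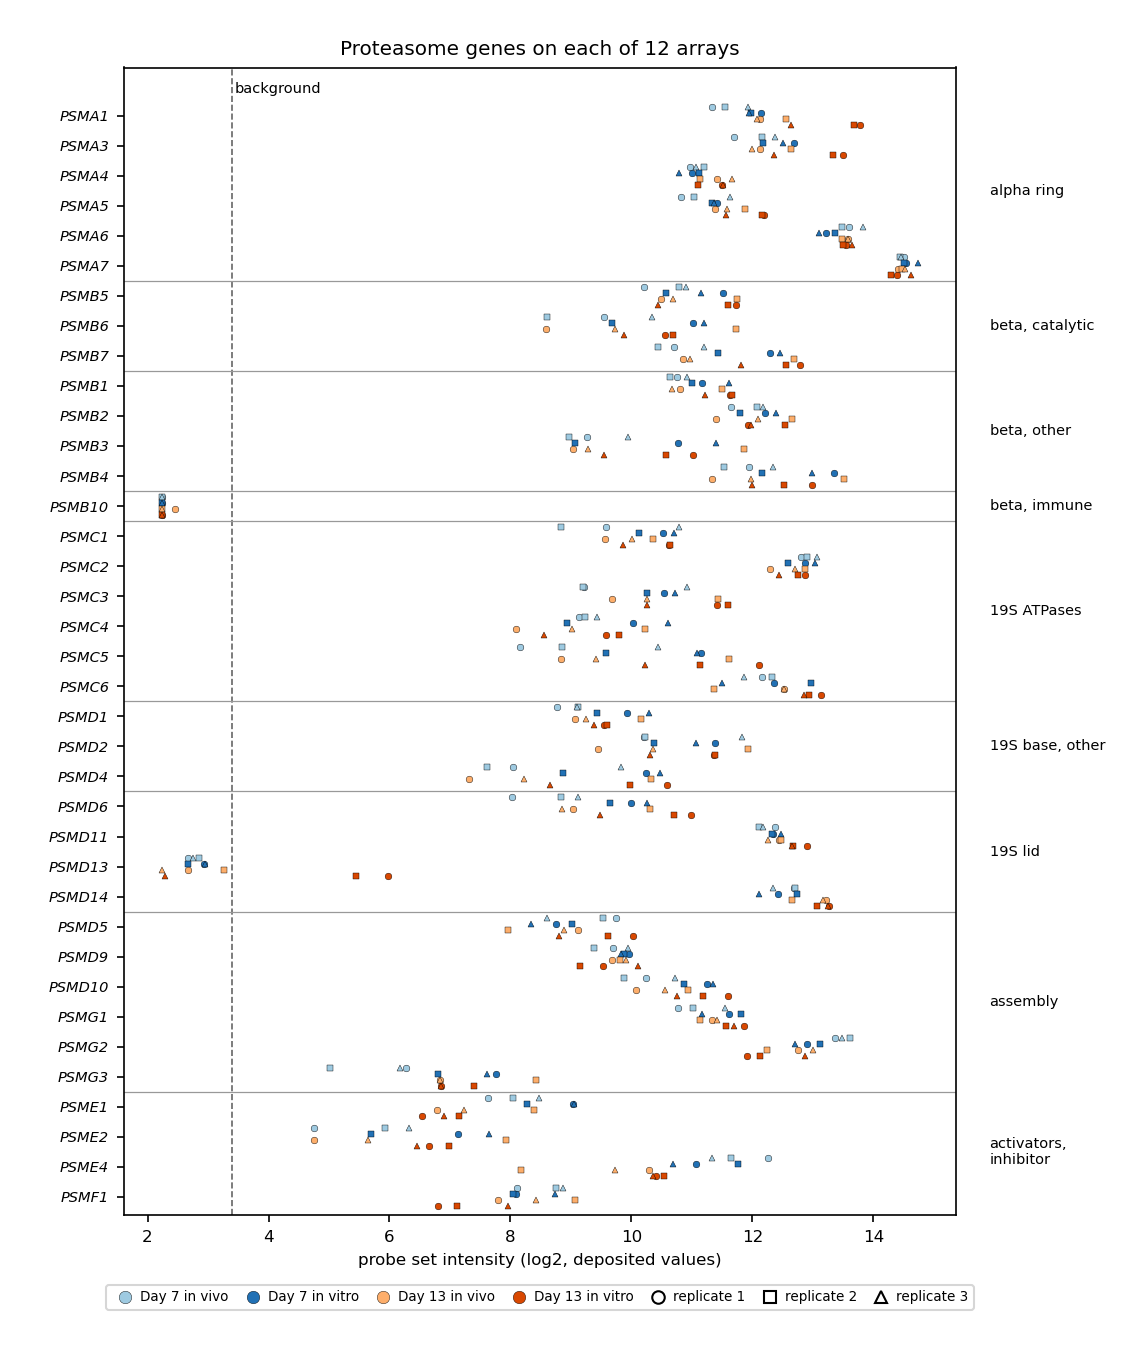
Deposited log2 intensity of the 37 proteasome genes on each of the 12 arrays; 1 row per gene, grouped by role, with colour for the group, shape for the replicate and a dashed line at the background of 3.39. PSMB10 stays left of the line on all arrays and PSMD13 crosses it on 2 Day 13 in vitro arrays; levels of different genes are not comparable.

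Between Day 7 and Day 13, 3 of the 37 genes passed the test in one origin or the other. In embryos made in vivo PSME4 fell. In embryos made in vitro PSMA1 rose and PSME1 fell. Among all probe sets 3.79% were called between the days in vivo and 7.51% in vitro, and among the 10589 above background on at least 3 arrays these shares were 8.23% and 16.6%, and neither 1 of 37 nor 2 of 37 exceeds them. The median difference of the 37 genes was 0.18 in vivo, with 27 above 0, and 0.02 in vitro, with 20 above 0. Over the 5803 named genes above background on at least 3 arrays, the medians were 0.02 and -0.02. The sign of the members' median turned with the setting. In vivo this median was -0.30 with arrays centred on ribosomal protein genes, which moved the median of all probe sets by -0.48. It was -0.50 with the GAPDH covariate, a control for how far labelling reached along a transcript. In vitro it was -0.07 with quantile normalization, -0.14 with the poly-A covariate, the mean of control RNAs added before labelling, and -0.19 with the GAPDH covariate. GAPDH values of in vivo blastocysts lay above those of all other arrays. That covariate therefore cannot be separated from the day in vivo or from origin at Day 7. Poly-A means were 9.27 to 12.99 on the Day 13 in vitro arrays and 13.34 to 14.96 on all others. The poly-A covariate therefore cannot be fully separated from the day in vitro or from origin at Day 13. This holds for each poly-A fit of those comparisons given below.

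Between the origins the test called 0 of the 37 genes on either day. By limma 50 of all probe sets differed at Day 7 (0.208%) and 288 at Day 13 (1.20%), with 0.378% and 2.57% among those above background. At an unadjusted p under 0.05, 6 proteasome genes stood apart at Day 7 and 4 at Day 13, where 12.1% and 30.0% of the 5803 named genes above background on at least 3 arrays did so. As deposited, 29 of 37 values were higher in vitro at Day 7 with a median difference of 0.41, and 29 of 37 at Day 13 with a median of 0.36. Named genes above background had medians of 0.12 and 0.09, with 60.8% and 54.9% higher in vitro. This lean depended on the setting. At Day 7 the median of the 37 genes turned to -0.11 with ribosomal protein centring, where 15 were above 0 and the named genes had a median of -0.39. It turned to -0.33 with the GAPDH covariate, which cannot be separated from origin at Day 7, and 13 were then above 0. At Day 13 it was 0.04 with quantile normalization (20 above 0), 0.10 with the poly-A covariate (20 above 0) and 0.01 with the GAPDH covariate (19 above 0). The poly-A covariate cannot be fully separated from origin at Day 13. Leaving out 1 array gave 0.24 to 0.58 at Day 7 and 0.04 to 0.61 at Day 13, the 0.04 without Day 13 in vivo replicate 1. These comparisons use the same arrays as the comparisons of days and are not independent of them.

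The difference of the day effect between origins was called for 0 of 37 genes, against 0.400% of all probe sets and 0.831% of those above background. At an unadjusted p under 0.05 there were 2 genes, PSMA6 and PSMG3, where 21.2% of the named genes above background passed. PSME4, PSMA1 and PSME1 were each called in one origin only, but the difference between their day effects was 1.60 ± 0.74, 0.70 ± 0.43 and -1.35 ± 0.61, with adjusted p of 0.531, 0.66 and 0.517 by limma. A difference between origins in how these 3 genes changed was therefore not shown.

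**Figure D2:**
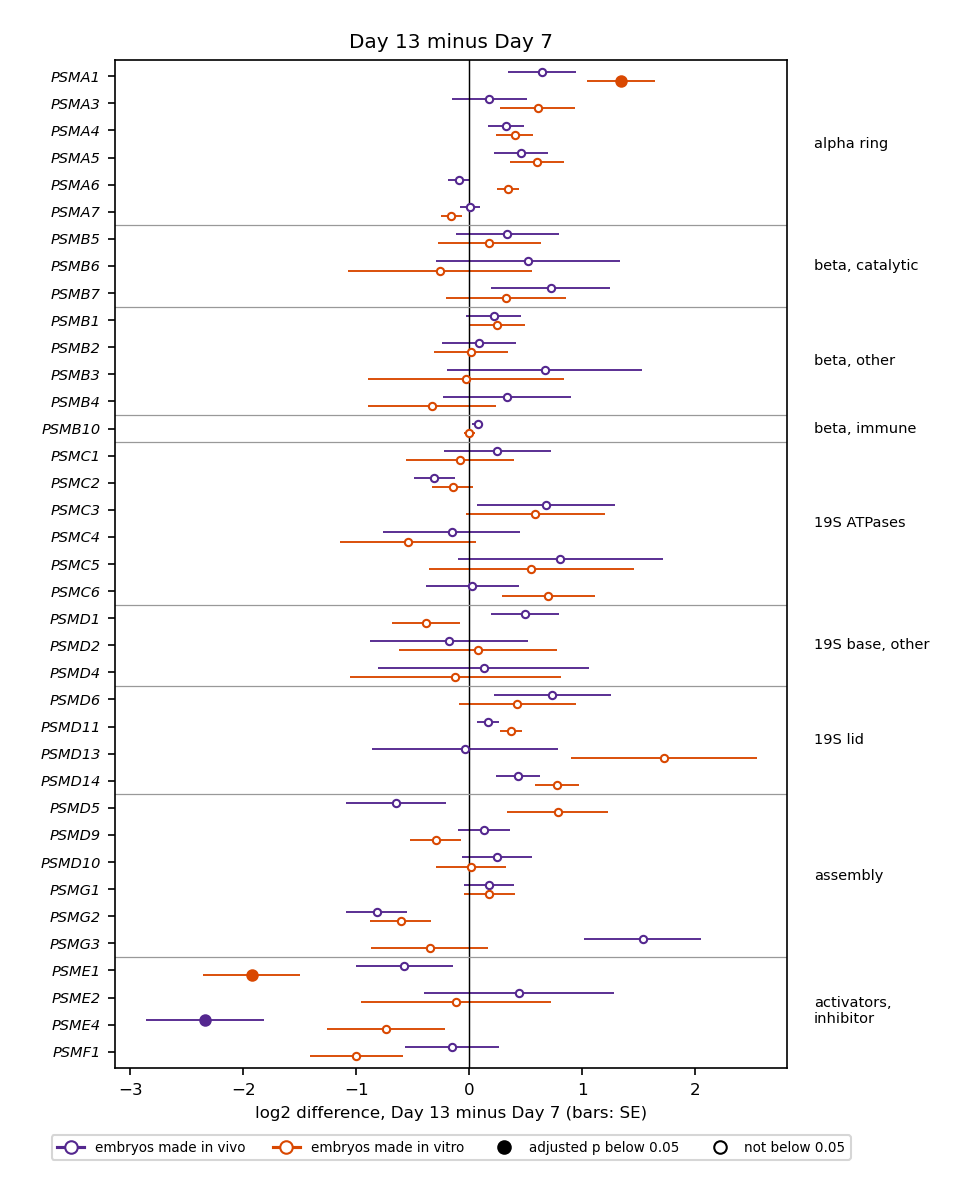
Log2 difference between Day 13 and Day 7 for each of the 37 genes, with bars of 1 SE, in embryos made in vivo and in vitro; filled points have an adjusted p below 0.05. Filled points are PSME4 in vivo and PSMA1 and PSME1 in vitro, and all 4 activator and inhibitor genes lie below 0 in vitro.

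The alpha ring forms the gate of the barrel, and 6 of its 8 listed genes were measured. PSMA1 stood at 12.15, 11.98 and 11.94 for in vitro blastocysts and at 13.78, 13.68 and 12.64 for in vitro conceptuses. It was 11.33, 11.55 and 11.94 for in vivo blastocysts and 12.12, 12.55 and 12.08 for in vivo conceptuses. Every Day 13 value lay above every Day 7 value of its own origin, and Day 13 in vitro replicates 1 and 2 lay about a log2 unit above replicate 3. PSMA1 rose by 1.34 ± 0.30 in vitro, or 2.53-fold (adjusted p = 0.0318, limma), and differed by 0.65 ± 0.30 in vivo (adjusted p = 0.406). The call in vitro ended on leaving out any 1 of the 3 in vitro blastocyst arrays, or Day 13 in vitro replicate 1, or its replicate 2, the adjusted p then being 0.0799 to 0.118, with differences of 1.14 to 1.40. The poly-A controls, RNAs added before labelling, averaged 9.27 and 10.50 on Day 13 in vitro replicates 1 and 2, 12.99 on replicate 3 and 13.34 to 14.60 on the Day 7 in vitro arrays. With their mean as a covariate the PSMA1 difference was 0.54 (adjusted p = 1), but that covariate cannot be fully separated from the day in vitro.

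PSMA6 varied little, with 13.60, 13.48 and 13.82 for in vivo blastocysts, 13.21, 13.36 and 13.09 for in vitro blastocysts, 13.57, 13.47 and 13.59 for in vivo conceptuses and 13.55, 13.50 and 13.65 for in vitro conceptuses. The 3 Day 7 in vitro arrays lay below all the others. The differences were 0.35 ± 0.10 between days in vitro (adjusted p = 0.0734) and -0.41 ± 0.10 between origins at Day 7 (adjusted p = 0.264), neither passing. PSMA7 spanned only 0.45 over the 12 arrays, from 14.29 to 14.74, the narrowest range of any member above background. PSMA3, PSMA4 and PSMA5 differed by 0.61, 0.40 and 0.60 between days in vitro and by 0.18, 0.32 and 0.46 in vivo, and did not pass in either origin (adjusted p of 0.211 or higher). PSMA6 and PSMA7 were named here, as were PSMD11 and PSMD14 further on, after their values were seen.

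The cutting sites belong to PSMB5, which cleaves after hydrophobic residues, PSMB6, which cleaves after acidic ones, and PSMB7, which cleaves after basic ones. PSMB5 gave 10.21, 10.79 and 10.91 for in vivo blastocysts, 11.51, 10.57 and 11.16 for in vitro blastocysts, 10.49, 11.74 and 10.69 for in vivo conceptuses and 11.72, 11.59 and 10.45 for in vitro conceptuses. PSMB6 in the same order of groups gave 9.55, 8.60 and 10.33, then 11.01, 9.68 and 11.20, then 8.59, 11.73 and 9.73 and 10.56, 10.69 and 9.88. PSMB7 gave 10.71, 10.44 and 11.19, then 12.29, 11.43 and 12.46, then 10.85, 12.68 and 10.97 and 12.79, 12.56 and 11.81. In all 3 genes Day 13 in vivo replicate 2 stood about a log2 unit or more above the other Day 13 in vivo arrays, at or above the level of most Day 13 in vitro arrays. The replicate SD for in vivo conceptuses was 0.67 for PSMB5, 1.59 for PSMB6 and 1.02 for PSMB7 (n = 3).

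At Day 7 the catalytic genes were higher in vitro by 0.44 ± 0.46, 1.14 ± 0.81 and 1.28 ± 0.53, with adjusted p of 1, 0.836 and 0.71 by limma. Only for PSMB7 did the 3 arrays of each origin not overlap. At Day 13 the differences were 0.28, 0.36 and 0.89. Between days they lay from 0.34 to 0.72 in vivo and from -0.26 to 0.33 in vitro, all less than 2 SE. The other beta ring genes PSMB1, PSMB2, PSMB3 and PSMB4, structural in function, were likewise all higher in vitro at Day 7, by 0.49, 0.17, 1.01 and 0.89, and did not pass (adjusted p of 0.836 or higher). PSMB10 was measured at background, with 2.23 or 2.24 on 11 arrays and 2.45 on Day 13 in vivo replicate 1, so no change in it could be seen.

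The ATPases of the base, PSMC1 to PSMC6, were all measured, and 0 passed in any comparison by limma or had an unadjusted p under 0.05. PSMC5 differed most of them between origins, at 8.15, 8.85 and 10.45 for in vivo blastocysts and 11.15, 9.59 and 11.08 for in vitro blastocysts. At Day 13 it was 8.84, 11.61 and 9.42 in vivo and 12.10, 11.13 and 10.23 in vitro. The origins overlapped on both days, as replicate 3 of the in vivo blastocysts lay above replicate 2 of the in vitro ones, and replicate 2 of the in vivo conceptuses above replicates 2 and 3 of the in vitro ones. The PSMC5 difference between origins was 1.45 ± 0.91 at Day 7 and 1.20 ± 0.91 at Day 13, with adjusted p of 0.836 and 0.581.

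PSMD1 and PSMD2, the scaffold of the base, and PSMD4, its ubiquitin receptor, also passed in no comparison, and PSMD1 at Day 7 was the only one with an unadjusted p under 0.05. PSMD4 lay at 8.03, 7.61 and 9.82 for in vivo blastocysts and 10.25, 8.87 and 10.47 for in vitro blastocysts, and at 7.32, 10.32 and 8.23 for in vivo conceptuses and 10.59, 9.98 and 8.65 for in vitro conceptuses. The same arrays crossed between origins as for PSMC5. PSMD1 lay at 8.77, 9.12 and 9.10 for in vivo blastocysts, 9.93, 9.44 and 10.30 for in vitro blastocysts, 9.07, 10.15 and 9.26 for in vivo conceptuses and 9.54, 9.59 and 9.38 for in vitro conceptuses. Its Day 7 groups did not overlap, with a difference of 0.89 ± 0.30 (adjusted p = 0.619), and its Day 13 groups did, with 0.01 ± 0.30. PSMD2 differed by 0.18 at Day 7 and 0.44 at Day 13.

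Of the lid, 4 of 8 listed genes were measured: PSMD14, the enzyme that removes ubiquitin, and PSMD6, PSMD11 and PSMD13. PSMD14 stood at 12.42, 12.73 and 12.10 for in vitro blastocysts and 13.27, 13.07 and 13.25 for in vitro conceptuses, without overlap, and at 12.69, 12.70 and 12.34 and 13.22, 12.65 and 13.16 in vivo. Its difference between days was 0.78 ± 0.20 in vitro (adjusted p = 0.0521) and 0.43 ± 0.20 in vivo (adjusted p = 0.391), so it missed the threshold narrowly in vitro. PSMD11 stood at 12.34, 12.32 and 12.48 for in vitro blastocysts and 12.91, 12.67 and 12.66 for in vitro conceptuses, a difference of 0.37 ± 0.10 (adjusted p = 0.0588). The Day 13 in vitro arrays of PSMD11 also lay above the Day 13 in vivo arrays, 12.44, 12.47 and 12.25, without overlap.

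PSMD6 gave 8.02, 8.84 and 9.12 for in vivo blastocysts, 9.99, 9.64 and 10.25 for in vitro blastocysts, 9.03, 10.31 and 8.85 for in vivo conceptuses and 10.98, 10.70 and 9.48 for in vitro conceptuses. The Day 7 groups did not overlap, yet the difference of 1.30 ± 0.52 had an adjusted p of 0.695. PSMD13 was 5.97, 5.44 and 2.30 for in vitro conceptuses, while the other groups lay at background with 2.66, 3.26 and 2.23 for in vivo conceptuses, 2.94, 2.66 and 2.95 for in vitro blastocysts and 2.66, 2.86 and 2.74 for in vivo blastocysts. So replicates 1 and 2 were above background and replicate 3 was not. Set against background, the mean of that group was at least 2.27-fold higher than that of Day 7 in vitro or Day 13 in vivo arrays, with adjusted p of 0.318 between days and 0.321 between origins. Without Day 13 in vitro replicate 3 the fitted differences were 2.86 (adjusted p = 0.000737) and 2.99 (adjusted p = 0.000866), so the call turned on this array. With the poly-A covariate the signs turned, to -0.90 between days and -1.12 between origins (adjusted p = 1 for both). That covariate cannot be fully separated from either comparison.

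Among the assembly genes, PSMG1, PSMG2 and PSMG3 are chaperones that help set up the alpha ring, and PSMD5, PSMD9 and PSMD10 are chaperones of the ATPase base. PSMG3 lay at 6.27, 5.02 and 6.18 for in vivo blastocysts, below all 9 others, with 7.75, 6.80 and 7.61 for in vitro blastocysts, 6.83, 8.42 and 6.83 for in vivo conceptuses and 6.85, 7.40 and 6.85 for in vitro conceptuses. It differed by 1.54 ± 0.52 between days in vivo (adjusted p = 0.199) and by -0.35 ± 0.52 in vitro. At Day 7 it was 1.57 ± 0.52 higher in vitro (adjusted p = 0.579), the largest such value among the members, and at Day 13 the difference was -0.32. The difference of its day effect, -1.89 ± 0.73, had an adjusted p of 0.42.

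PSMG2 ran the other way, at 13.37, 13.61 and 13.48 for in vivo blastocysts and 12.76, 12.25 and 13.00 for in vivo conceptuses, and at 12.90, 13.12 and 12.71 and 11.91, 12.12 and 12.87 in vitro. The in vivo groups did not overlap, with a difference of -0.82 ± 0.27 (adjusted p = 0.19), and that in vitro was -0.61 ± 0.27 (adjusted p = 0.274). PSMD5 lay at 9.74, 9.53 and 8.61 for in vivo blastocysts, 8.75, 9.02 and 8.34 for in vitro blastocysts, 9.11, 7.95 and 8.88 for in vivo conceptuses and 10.03, 9.62 and 8.81 for in vitro conceptuses. Its values between days had opposite signs, -0.65 in vivo and 0.78 in vitro, with a difference of 1.43 ± 0.63 that did not pass (adjusted p = 0.503). For PSMD9, PSMD10 and PSMG1 the differences between days ran from -0.30 to 0.24 over both origins.

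The activators and the inhibitor held 2 of the 3 genes that passed between days. PSME4, a cap linked to histone breakdown, stood at 12.25, 11.65 and 11.32 for in vivo blastocysts and 10.29, 8.18 and 9.73 for in vivo conceptuses. In vitro it was 11.07, 11.76 and 10.69 at Day 7 and 10.41, 10.54 and 10.36 at Day 13. In both origins every Day 13 array lay below every Day 7 array, and Day 13 in vivo replicate 2 was the lowest of all 12. In vivo it fell by 2.34 ± 0.52, or 5.06-fold (adjusted p = 0.0496, limma), and in vitro the difference was -0.74 ± 0.52 (adjusted p = 0.582). The call ended on leaving out any 1 of the 3 in vivo blastocyst arrays, or Day 13 in vivo replicate 2, or its replicate 3, the adjusted p then being 0.0512 to 0.158. Without Day 13 in vivo replicate 2 the difference was -1.73. With each array's GAPDH 3′ minus 5′ control difference in the model it was -1.39 (adjusted p = 0.401).

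PSME1, a subunit of the cap induced by interferon, stood at 9.03, 8.27 and 9.06 for in vitro blastocysts and 6.53, 7.15 and 6.89 for in vitro conceptuses, without overlap. The in vivo arrays gave 7.62, 8.04 and 8.47 at Day 7 and 6.78, 8.39 and 7.24 at Day 13, where replicate 2 lay among the Day 7 values. PSME1 fell by 1.93 ± 0.43 in vitro, or 3.8-fold (adjusted p = 0.0316, limma), and the difference in vivo was -0.58 ± 0.43 (adjusted p = 0.581). That call ended on leaving out Day 7 in vitro replicate 1, or its replicate 3, or any 1 of the 3 in vitro conceptus arrays (adjusted p of 0.0511 to 0.121). With the poly-A covariate, which cannot be fully separated from the day in vitro, the difference was -1.56 (adjusted p = 0.705).

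PSME2, the partner of PSME1 in the same cap, did not pass: it gave 7.13, 5.69 and 7.64 for in vitro blastocysts and 6.66, 6.98 and 6.46 for in vitro conceptuses, a difference of -0.12 ± 0.84. PSMF1, an inhibitor of the core particle, was 8.10, 8.04 and 8.74 for in vitro blastocysts, 6.80, 7.12 and 7.96 for in vitro conceptuses, 8.10, 8.75 and 8.87 for in vivo blastocysts and 7.80, 9.07 and 8.42 for in vivo conceptuses. The Day 13 in vitro arrays lay below both Day 7 groups, and replicate 3 of them above Day 13 in vivo replicate 1. The PSMF1 difference was -1.0 ± 0.41 between days in vitro (adjusted p = 0.23) and -1.13 ± 0.41 between origins at Day 13 (adjusted p = 0.228). In vitro the 4 genes of this role had a median difference between days of -0.87. It was 0.50 for the 6 alpha ring genes, 0.18 for the 3 catalytic and -0.01 for the 4 other beta ring genes, 0.23 for the 6 ATPases, -0.12 for PSMD1, PSMD2 and PSMD4, 0.60 for the 4 lid genes (0.43 without PSMD13) and -0.14 for the 6 chaperones.

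**Figure D3:**
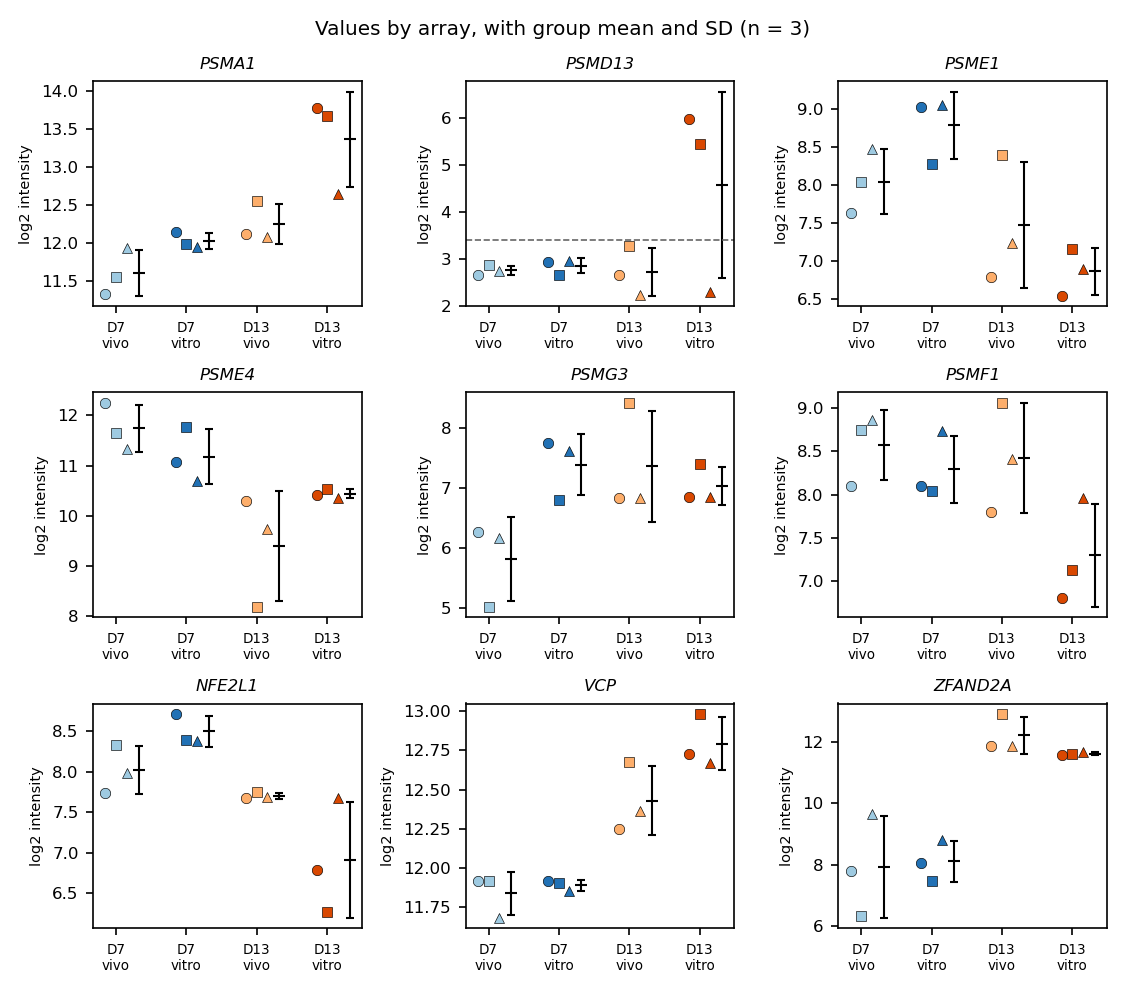
Deposited log2 intensity of 6 proteasome genes and 3 related genes (NFE2L1, VCP and ZFAND2A) on each array, by group, with D7 and D13 for Day 7 and Day 13, circles, squares and triangles for replicates 1, 2 and 3, and the group mean ± SD (n = 3) at the right of each group. The dashed line for PSMD13 is the background of 3.39. Day 13 in vivo replicate 2 is the highest array of its group for every gene shown except PSME4, where it is the lowest.

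Counted by role, the values higher in vitro at Day 13 included all 13 genes of the regulatory particle, with a median difference of 0.44, and 11 of the 14 core particle genes, with a median of 0.30. At Day 7 they were 11 of 13 and 12 of 14, with medians of 0.59 and 0.40. The same shares over named genes above background were 54.9% at Day 13 and 60.8% at Day 7. At Day 13 the 13 genes had 9 above 0 with quantile normalization, 6 with the poly-A covariate and 6 with the GAPDH covariate, and the 14 had 6, 7 and 8. At Day 7 they had 4 of 13 and 3 of 14 with the GAPDH covariate, and 7 and 4 with ribosomal protein centring. The groups did not overlap for 10 of the 37 genes at Day 7, 8 of them higher in vitro, and for 5 at Day 13, all higher in vitro: PSMA1, PSMC6, PSMD11, PSME4 and PSMG1. Among probe sets above background the shares without overlap were 18.6% and 29.8%. Between days the groups did not overlap for 4 genes in vivo and 8 in vitro, where these shares were 30.6% and 44.4%.

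**Figure D4:**
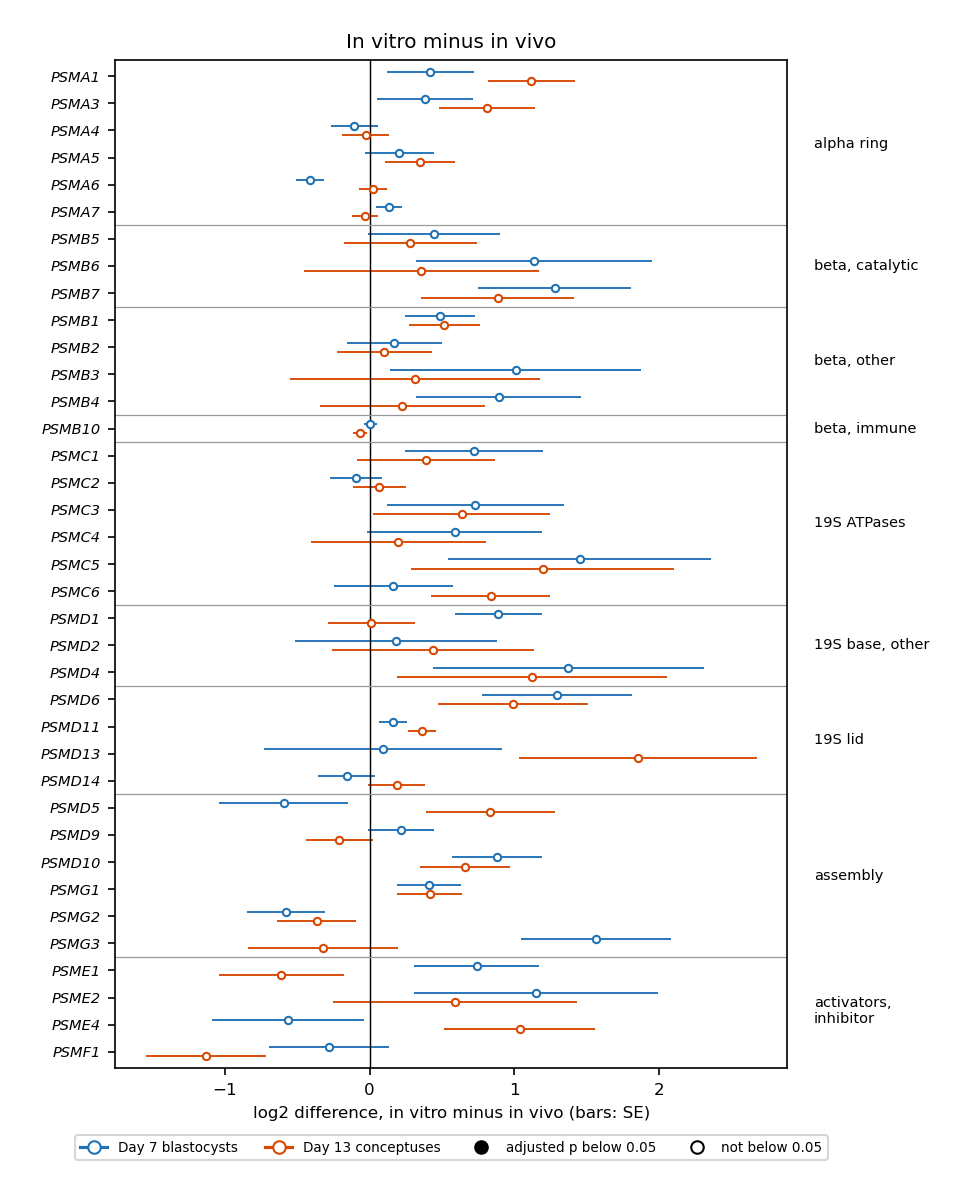
Log2 difference between in vitro and in vivo arrays for each of the 37 genes at Day 7 and at Day 13, with bars of 1 SE. All points are open, as 0 genes had an adjusted p below 0.05, and 29 of 37 lie above 0 on each day.

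Within each group most of the proteasome genes shared 1 brightest or dimmest array. Of the 35 above background on at least 3 arrays, 25 were brightest of their group on Day 13 in vivo replicate 2 (71.4%), against 41.4% of the 10589 probe sets above background on at least 3 arrays. For 24 of 35 Day 13 in vitro replicate 3 was the dimmest (68.6%, against 41.7%), for 25 Day 7 in vitro replicate 2 was the dimmest (71.4%, against 40.0%), and for 25 Day 7 in vivo replicate 3 was the brightest (71.4%, against 34.9%). A minority of the proteasome genes ran the other way: PSMA4, PSMA6, PSMC6, PSMD5, PSMD14, PSME4, PSMG1 and PSMG2 were dimmest on Day 13 in vivo replicate 2. Of these PSMC6, PSMD5, PSMD14 and PSME4 were also dimmest on replicate 3 of each blastocyst group. The median SD of these 35 genes was 0.33 for in vitro blastocysts, 0.40 for in vivo blastocysts, 0.43 for in vitro conceptuses and 0.63 for in vivo conceptuses, against 0.36, 0.37, 0.38 and 0.49 for the probe sets above background.

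The mean of the 36 genes above background on any array, PSMD13 included, was 10.10, 10.13 and 10.62 for in vivo blastocysts and 10.88, 10.44 and 10.89 for in vitro blastocysts. At Day 13 it was 10.03, 10.97 and 10.30 in vivo and 11.06, 10.96 and 10.45 in vitro. The array's GAPDH 3′ minus 5′ difference, which is larger where labelling reached less far along the transcript, was 5.58, 5.65 and 5.59 for in vivo blastocysts, 3.40, 4.19 and 3.47 for in vitro blastocysts, 4.62, 2.85 and 4.57 for in vivo conceptuses, and 2.53, 2.61 and 4.17 for in vitro conceptuses. In 3 of the groups the array or arrays with the smaller GAPDH difference had the higher proteasome mean. In Day 7 in vivo arrays the GAPDH values were nearly equal while the proteasome mean of replicate 3 stood apart. The same difference for actin ran the other way on Day 13 in vivo replicate 2, at 4.29 against 2.67 and 1.99. For cyclophilin, a further such control, the difference was 4.54, 5.00 and 5.06 for in vivo blastocysts and 4.23, 4.15 and 4.62 for in vitro blastocysts. It was 4.23, 4.29 and 4.56 for in vivo conceptuses. In each of these groups it was lowest on the array with the lowest proteasome mean. For in vitro conceptuses it was 3.30, 4.05 and 4.42, in the same order as GAPDH. The part of labelling in the proteasome mean was not tested. Fitted with the GAPDH measure as a covariate, the median of the 37 genes between origins was -0.33 at Day 7 and 0.01 at Day 13, in place of 0.41 and 0.36. The Day 7 in vivo arrays, at 5.58 to 5.65, did not overlap with the others, at 2.53 to 4.62. With so little spread in that group, the fitted slope came almost wholly from the other groups. The fit therefore cannot separate the GAPDH measure from origin at Day 7 or from the day in vivo.

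**Figure D5:**
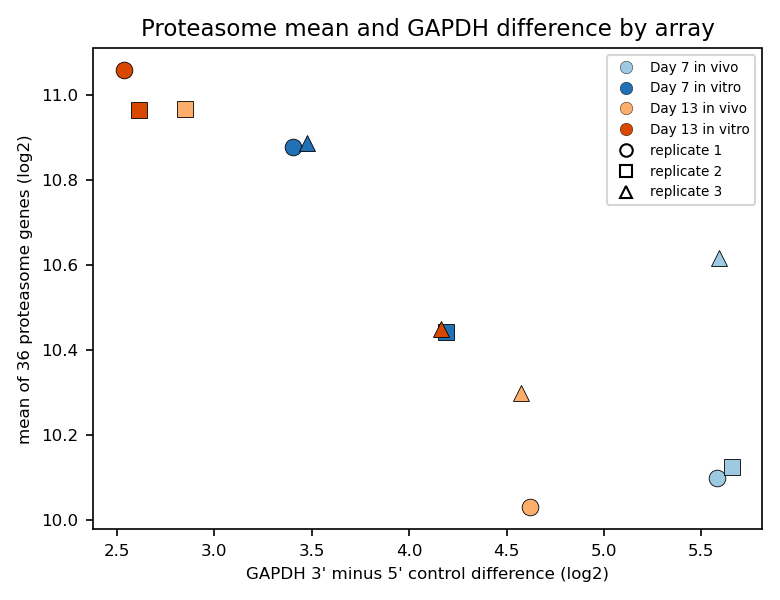
Mean log2 intensity of the 36 proteasome genes above background against the GAPDH 3′ minus 5′ control difference (log2) on each of the 12 arrays. Arrays with a difference under 4 have proteasome means of 10.88 to 11.06 and the others 10.03 to 10.62; the 3 Day 7 in vivo arrays share nearly one GAPDH value.

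Leaving out Day 13 arrays changed the comparison of origins on that day. Without Day 13 in vitro replicate 3 there were 3 calls, PSMA1, PSMA3 and PSMD13, all higher in vitro, while 16.1% of probe sets above background were called. Without that array and Day 13 in vivo replicate 2, a choice made after seeing the data, there were 7: PSMA1, PSMA3, PSMB1, PSMB7, PSMD6 and PSMD13 higher in vitro and PSMG2 lower, against 15.3% of probe sets above background. PSMA1 then differed by 1.63 (adjusted p = 0.00369). In both settings the in vitro conceptus arrays left are replicates 1 and 2, whose poly-A means were 9.27 and 10.50 and whose hybridization control means were 10.38 and 10.84. In vivo conceptus arrays had 14.25 to 14.57 and 12.73 to 13.29. The part of these controls in the 3 and 7 calls was not tested. In vivo, the median of the 37 genes between days was -0.02 without Day 13 in vivo replicate 2.

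A further probe set was available for 6 of the genes, PSMB2, PSMC2, PSMC5, PSMC6, PSMD4 and PSMD6, and the lowest adjusted p of these further probe sets in any comparison was 0.142. For PSMC2 it differed by 0.71 ± 0.57 between days in vitro where the brighter one gave -0.15, and for PSMC5 by -0.50 ± 0.24 where the brighter one gave 0.55. The second PSMC6 probe set differed by 1.75 ± 0.60 in vitro (adjusted p = 0.142) and by -0.78 ± 0.60 in vivo, where the brighter one gave 0.70 and 0.03. For PSMD4 the signs differed in vitro, at 0.24 and -0.12, each within 1 SE of 0.

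Of 45 related genes listed for their role (inducible subunits, partners of the proteasome, ubiquitin and its activating enzymes, shuttles, and transcription control) 31 were measured. Between days 2 rose and 0 fell in vivo, and 3 rose and 1 fell in vitro, where 3.79% and 7.51% of all probe sets and 8.23% and 16.6% of those above background were called. By limma 0 passed between origins or in the difference of the day effect, with the lowest adjusted p at 0.160 for RAD23B at Day 13. At an unadjusted p under 0.05 there were 0 of 31 at Day 7, 9 at Day 13 and 3 for the difference. Of the 5803 named genes above background on at least 3 arrays 12.1%, 30.0% and 21.2% did so, and none of these counts exceeds its share. The median difference of the related genes between days was 0.03 in vivo and 0.01 in vitro. PSMB8 lay at the floor of 2.23 on all 12 arrays. PSMB9 was 6.56, 6.08 and 7.29 for in vitro blastocysts and 4.47, 5.38 and 5.25 for in vitro conceptuses, without overlap, and its difference of -1.61 ± 0.41 missed the threshold (adjusted p = 0.0506).

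ZFAND2A, a stress-inducible protein that binds the proteasome, rose in both origins. It stood at 7.78, 6.33 and 9.65 for in vivo blastocysts and 11.87, 12.93 and 11.89 for in vivo conceptuses, and at 8.07, 7.46 and 8.81 and 11.60, 11.61 and 11.68 in vitro. The rise was 4.31 ± 0.76 in vivo (adjusted p = 0.0174) and 3.52 ± 0.76 in vitro (adjusted p = 0.027). The call in vivo ended without replicate 1 of the blastocysts (adjusted p = 0.0605) or replicate 2 of the conceptuses (adjusted p = 0.0529). In vitro it ended without any 1 of the 3 blastocyst arrays or without replicate 1 or 2 of the conceptuses (adjusted p of 0.0542 to 0.0923). With the GAPDH covariate the adjusted p was 0.169 in vivo and 0.0558 in vitro, and with the poly-A covariate 0.269 in vitro. A second ZFAND2A probe set differed by 1.38 ± 0.84 in vivo (adjusted p = 0.568) and 3.05 ± 0.84 in vitro (adjusted p = 0.0695).

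VCP, the ATPase that pulls ubiquitin-tagged proteins out of complexes and membranes, also rose in both. Its values were 11.92, 11.92 and 11.68 for in vivo blastocysts and 12.25, 12.67 and 12.36 for in vivo conceptuses, and 11.92, 11.90 and 11.85 and 12.73, 12.98 and 12.67 in vitro. The differences were 0.59 ± 0.12 (adjusted p = 0.0369) and 0.90 ± 0.12 (adjusted p = 0.00394). The call in vitro ended with the poly-A covariate (0.81, adjusted p = 0.167) and with arrays centred on the members (adjusted p = 0.143), but not on leaving out any 1 array. In vivo it ended on leaving out any 1 of the 3 blastocyst arrays or replicate 2 or 3 of the conceptuses (adjusted p of 0.0646 to 0.106). With arrays centred on 66 ribosomal protein genes the in vivo difference was 0.11 (adjusted p = 0.698), and with the GAPDH covariate 0.36 (adjusted p = 0.312). The in vivo call also ended with quantile normalization, the background filter, only the groups compared and the poly-A covariate (adjusted p of 0.0572 to 0.252). Centring on the members ended it as well (adjusted p = 0.837).

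UBQLN2, a shuttle that carries tagged proteins to the proteasome, rose in vitro, from 9.71, 9.79 and 9.77 at Day 7 to 11.59, 11.88 and 10.86 at Day 13. The difference was 1.69 ± 0.39 (adjusted p = 0.034), and the call ended without any 1 of the 3 blastocyst arrays or without replicate 1 or 2 of the conceptuses (adjusted p of 0.0782 to 0.125). With the poly-A covariate UBQLN2 differed by 0.94 (adjusted p = 1), and with the GAPDH covariate its adjusted p was 0.0631. Fitting only the groups compared also ended the UBQLN2 call (adjusted p = 0.0738, limma). In vivo the UBQLN2 difference was 0.42 ± 0.39 (adjusted p = 0.684). NFE2L1, the transcription factor that raises proteasome genes when the protease is inhibited, fell in vitro. It stood at 8.72, 8.40 and 8.38 for in vitro blastocysts and 6.78, 6.26 and 7.68 for in vitro conceptuses, with replicate 3 of Day 13 nearest to the Day 7 values. NFE2L1 fell by 1.59 ± 0.32 (adjusted p = 0.0201), and the call ended without replicate 1 or 3 of the blastocysts or replicate 1 of the conceptuses (adjusted p of 0.0604 to 0.0825). With the poly-A covariate the NFE2L1 difference was -0.86 (adjusted p = 0.807), and with only the groups compared the limma adjusted p was 0.163. In vivo the difference was -0.32 ± 0.32 (adjusted p = 0.748).

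POMP, the chaperone that completes the core particle, was 10.99, 11.15 and 11.04 for in vivo blastocysts, 11.70, 11.27 and 11.84 for in vitro blastocysts, 10.66, 11.95 and 11.16 for in vivo conceptuses and 11.45, 11.34 and 11.38 for in vitro conceptuses. Its brighter probe set differed by 0.19 ± 0.29 between days in vivo and -0.21 ± 0.29 in vitro and did not pass. A second POMP probe set, at 7.73, 9.14 and 7.51 for in vitro blastocysts and 10.62, 10.54 and 9.65 for in vitro conceptuses, rose by 2.14 ± 0.50 in vitro (adjusted p = 0.0360). The pair of probe sets therefore gave POMP opposite signs in vitro.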

How the data were processed

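The authors deposited normalized log2 intensities, 1 per probe set and array. RMA, GCRMA and limma are listed in the submitters' processing notes, with neither version nor role. Labelling took 2 cycles from 75 ng of RNA, per the labels. Genome build and probe annotation date are not given in the sources used here.

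Of 24128 probe sets 112 controls were left out of the tests. Names came from the platform annotation: 13292 of 24016 probe sets carried 1 symbol and 10724 did not, and all 43 member probe sets carried the current RefSeq symbol. A model with 4 group means over 12 arrays was fitted with limma 3.58.1 (lmFit, eBayes without trend) in R 4.3.3, with 8 residual and 0.379 prior degrees of freedom, two-sided, Benjamini-Hochberg adjusted over 24016 and called below 0.05. A summed marker level is the log2 of the summed linear values. The script was tested on simulated data. The number of arrays, not depth, limits precision, and where pools of a group shared a source p-values cover only the spread between pools.

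Members, lists and the background were chosen with earlier results of these data known. Values on every array are given for called members, PSMB5, PSMB6, PSMB7 and PSMB10, and the 3 largest rises and falls of each comparison. Alternatives were quantile normalization, median or ribosomal protein centring, a background filter, eBayes with trend, only the groups compared, a replicate block, poly-A or GAPDH covariates, the mean of a gene's probe sets and each array left out. Deviations from the group means correlated above 0.1 in 3 of the 18 pairs of arrays with the same number (-0.647 to 0.425), so replicate numbers were not used as pairs. Promoter and protein sequences were not analysed here.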

Additional observations from a re-analysis of the deposited data

How the results depend on the processing

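PSME4 in vivo and PSMA1 and PSME1 in vitro kept their direction under every alternative run, but none of the 3 kept its call under all of them. In vivo, where 1 member was called, the count was 0 with quantile normalization, with only the groups compared, with the poly-A covariate, with the GAPDH covariate and with a pair of Day 13 arrays left out, replicate 3 in vitro with replicate 2 in vivo. It was 3 with ribosomal protein centring (PSMC2, PSME1 and PSME4), 2 with centring on the members (PSME4 and PSMG3), and 0 to 1 with single arrays left out. In vitro, where 2 were called, it was 0 with only the groups compared and with the poly-A covariate, which cannot be fully separated from the day in vitro. It was 4 with median centring and 5 with both arrays left out, where 1985 and 3083 of all probe sets were called. With the mean of a gene's probe sets the count was 5, where 1290 of 9155 genes were called. With single arrays left out the count was 0 to 3, where 913 to 2898 of all probe sets were called. Between origins at Day 7 it was 0 throughout. At Day 13 it was 1 with the background filter (PSMA1), where 1215 of the 10589 probe sets kept were called. The count was 7 with both arrays left out, where 2038 of all probe sets were called. With single arrays left out the count was 0 to 3, where 135 to 2058 of all probe sets were called. For the difference of the day effect it was 2 with both arrays left out (PSMA1 and PSMD13), where 1101 of all probe sets were called. With single arrays left out the count was 0 to 1, where 64 to 1083 of all probe sets were called. Leaving out both arrays and centring on the members were chosen after seeing the data. The cause of these changes was not tested.

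With the replicate number as a block, 0 members were called between days in vivo and 0 in vitro, with adjusted p of 0.108 for PSME4, 0.0713 for PSMA1 and 0.0625 for PSME1. Among related genes the block ended the in vitro calls of ZFAND2A (0.0535), UBQLN2 (0.0946) and NFE2L1 (0.0565). The numbers did not pair the samples, so a call lost under the block does not measure a weaker effect.

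The median difference of the 37 genes became -0.50 in vivo and -0.33 at Day 7 with the GAPDH covariate, whose values for in vivo blastocysts did not overlap with the other arrays. With ribosomal protein centring it became -0.11 at Day 7 and 0.54 for the difference of the day effect, while the median of all probe sets shifted by -0.52 and 0.64. That centring shifted all probe sets by -0.48 between days in vivo, 0.16 in vitro and 0.12 between origins at Day 13. With the mean of its probe sets POMP differed by 0.97 in vitro (adjusted p = 0.0122), the reverse of its brighter probe set.

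Counts over all probe sets moved by more than 1.5 times in these settings. From 911 in vivo they were 241 with only the groups compared, 568 with the replicate block, 513 with the GAPDH covariate, 1718 with ribosomal protein centring and 1478 with the background filter. From 1804 in vitro they were 787 with only the groups compared, 197 with the poly-A covariate, 2886 with the background filter, 3083 with both arrays left out and 913 to 2898 with single arrays left out. From 50 at Day 7 they ran from 3 with only the groups compared to 116 without Day 7 in vivo replicate 2. From 288 at Day 13 they ran from 0 with only the groups compared to 2058 without Day 13 in vitro replicate 3. From 96 for the difference of the day effect they ran from 11 with the poly-A covariate to 1101 with both arrays left out. Of the recomputed counts and medians of the members, 153 stayed within 1.5 times or 1 SD of 0.50 and 32 did not. That SD is larger than any of the medians as deposited, which ran from -0.10 to 0.41. A median could therefore turn its sign and still count as within it, and counts that stayed at 0 were included. The tally thus does not measure how stable the results are.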
